A study of Mus musculus with 26 samples.

Results

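The replication-dependent histone genes encode the core histones H2A, H2B, H3 and H4 and the linker histone H1. They were taken as every gene whose name begins with Hist1h, Hist2h, Hist3h or Hist4h in the authors' annotation of 8 ATAC-seq peak lists. The rule found 61 genes of 21540 gene names, with 406 peaks annotated to them, of which 368 lay within 1000 bp of the gene start (called promoter peaks here). RefSeq lists 70 genes of the same naming series, 3 of them pseudogenes, and 9 of the 70 were never named in a list. The 61 genes hold 5 H1, 16 H2A, 15 H2B, 12 H3 and 13 H4 members.

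Replication-dependent histone genes supply the histones that package newly copied DNA. They lie in clusters, lack introns, and give mRNAs that end in a stem-loop in place of a poly(A) tail. Their transcription is highest in S phase, while neurons, which have left the cell cycle, draw mainly on replication-independent variants such as H3.3 and H2A.Z. Many H2A and H2B genes stand head to head and share 1 promoter. ATAC-seq, in which a transposase inserts adapters into accessible DNA, reports open chromatin and not transcription, and no RNA was measured here.

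Nuclei of striatal projection neurons, the medium spiny neurons or MSNs, were labelled D1 or D2 for the dopamine receptor they carry. The labels give the tissue as mouse brain, and the title of the series names the nucleus accumbens. Each cell type was profiled at baseline (SS), after acute cocaine (SC), after chronic cocaine with a long withdrawal (CS) and in cocaine relapse (CC). The 26 libraries comprise 2 of D1 SS, 4 each of D1 SC, D1 CS and D1 CC, 2 of D2 SS, 1 of D2 SC, 8 of D2 CS and 1 of D2 CC. Strain, age, sex, cocaine dose and the way the nuclei were sorted are not given in the labels used here, nor is it stated whether libraries came from separate animals. Each group has 1 peak list and no value per library, which leaves the replicate error unknown. No test between groups was possible, and every difference describes the lists.

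The lists held between 27917 peaks (D2 CS) and 77103 peaks (D1 CC), and read depth is not recorded in them. The SC, CS and CC lists of D1 and the CS list of D2 held 70 to 137 peaks on patch scaffolds, which carry corrected or alternate versions of parts of the genome, and are called patch-rich. Both SS lists and the SC and CC lists of D2 held 4 to 7 such peaks and are called patch-poor. These groups have 1 or 2 libraries each and those of the patch-rich lists have 4 or 8, and the sample records of each set form a run of their own. Patch content and library number cannot be told apart, and comparisons across this split are marked below. Of the markers that RefSeq gave a start, all 5 for D1 MSNs had a peak there in each D1 list. D2 MSN markers had peaks in 5 of 5 genes in each D2 list, but also in 4 of 5 in D1 SC and all 5 in D1 CS and D1 CC, and in none in D1 SS. D1 MSN markers had peaks in 3 to 5 of 5 genes in the D2 lists, so marker peaks did not separate the cell types. Among pan-MSN markers, 3 to 5 of 5 had a peak. At most 1 of 4 astrocyte, 2 of 4 oligodendrocyte, 0 of 3 microglia and 1 of 2 vascular markers had a peak in any list.

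The clusters lie mainly on chromosome 13 (Hist1), with smaller ones on chromosomes 3 (Hist2) and 11 (Hist3) and a lone gene on chromosome 6 (Hist4h4). In the coordinates of RefSeq for GRCm38.p6, the assembly behind mm10, Hist1 splits into stretches parted by over 100 kb. The first holds 19 genes at chr13:21715711-21837530, the second 5 genes at chr13:22035122-22043658, the third 29 genes at chr13:23531044-23764412 and the fourth the pair Hist1h2aa and Hist1h2ba at chr13:23933725-23934913. The pseudogene Hist1h2al lies alone at chr13:51200084-51203066. Hist2 holds 10 genes at chr3:96219885-96270192, and Hist3 holds 3 genes at chr11:58948911-58955192. Hist4h4 lies at chr6:136803993-136804431. Hfe, an iron regulator in the third Hist1 stretch, was the only other protein-coding gene with a RefSeq promoter entry in the 3 longest stretches, and it had a peak at its start in D1 CS and D1 CC.

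The sequences below are the 250 bases upstream of the RefSeq start, 5′ to 3′ on the gene's strand, from RefSeq for GRCm38.p6. Capitals mark the CCAAT box, the TATA box as TATAAA, the octamer known from H2B promoters as ATTTGCAT, and the cyclic AMP response element as TGACGTCA, each read on both strands. RefSeq gave a promoter sequence for 62 of the 70 genes. The first set shows the most accessible H3 and H4 promoters and a shared H2A and H2B promoter: Hist1h3e (chr13:23562386-23562635, minus strand), Hist1h4c (chr13:23698459-23698708, minus strand) and Hist1h2ac (chr13:23683960-23684209, minus strand).
Hist1h3e: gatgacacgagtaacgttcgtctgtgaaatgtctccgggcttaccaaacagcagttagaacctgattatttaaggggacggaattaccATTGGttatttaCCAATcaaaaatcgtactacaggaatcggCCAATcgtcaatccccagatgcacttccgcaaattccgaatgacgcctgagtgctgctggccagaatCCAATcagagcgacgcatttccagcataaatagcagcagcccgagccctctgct
Hist1h4c: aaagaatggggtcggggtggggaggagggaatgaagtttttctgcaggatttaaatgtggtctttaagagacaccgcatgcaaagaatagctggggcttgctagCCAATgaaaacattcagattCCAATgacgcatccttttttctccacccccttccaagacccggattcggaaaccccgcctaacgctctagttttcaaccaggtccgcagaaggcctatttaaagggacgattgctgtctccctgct
Hist1h2ac: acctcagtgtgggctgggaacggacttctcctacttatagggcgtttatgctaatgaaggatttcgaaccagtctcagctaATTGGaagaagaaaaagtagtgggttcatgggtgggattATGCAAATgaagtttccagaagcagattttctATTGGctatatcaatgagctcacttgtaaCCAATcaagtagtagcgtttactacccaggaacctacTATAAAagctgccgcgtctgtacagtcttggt
These are followed by 2 testis-type promoters that had no peak in any list, Hist1h1t (chr13:23695561-23695810, plus strand) and Hist1h2ba (chr13:23934157-23934406, minus strand), which also hold capitals.
Hist1h1t: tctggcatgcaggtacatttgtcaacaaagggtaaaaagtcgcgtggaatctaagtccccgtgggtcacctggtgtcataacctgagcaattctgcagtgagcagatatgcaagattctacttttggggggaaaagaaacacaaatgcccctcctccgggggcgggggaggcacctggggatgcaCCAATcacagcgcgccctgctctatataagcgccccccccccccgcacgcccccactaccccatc
Hist1h2ba: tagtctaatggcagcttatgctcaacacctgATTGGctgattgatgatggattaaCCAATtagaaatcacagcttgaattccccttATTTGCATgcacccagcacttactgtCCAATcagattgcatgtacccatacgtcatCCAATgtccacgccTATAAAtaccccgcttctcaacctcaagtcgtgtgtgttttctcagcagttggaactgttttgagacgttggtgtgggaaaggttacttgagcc
The last set shows promoters that share a long run of bases with another histone promoter. Hist1h2bq (chr13:21810200-21810449, minus strand) has the same 250 bases as Hist1h2br (chr13:21833493-21833742, plus strand). Hist2h2aa1 (chr3:96245247-96245496, plus strand) and Hist2h2aa2 (chr3:96240375-96240624, minus strand) share a run of 169 bases within the 250 shown.
Hist1h2bq: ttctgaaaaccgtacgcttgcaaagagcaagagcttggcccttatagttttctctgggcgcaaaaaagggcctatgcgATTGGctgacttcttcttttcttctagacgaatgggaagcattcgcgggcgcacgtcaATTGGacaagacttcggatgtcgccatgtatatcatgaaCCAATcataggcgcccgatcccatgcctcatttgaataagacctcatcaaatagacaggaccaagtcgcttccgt
Hist2h2aa1: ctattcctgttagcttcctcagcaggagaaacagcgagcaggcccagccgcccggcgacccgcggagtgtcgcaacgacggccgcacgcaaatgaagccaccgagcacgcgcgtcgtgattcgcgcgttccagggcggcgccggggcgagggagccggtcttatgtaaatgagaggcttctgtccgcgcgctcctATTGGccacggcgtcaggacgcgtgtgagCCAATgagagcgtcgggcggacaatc
Hist2h2aa2: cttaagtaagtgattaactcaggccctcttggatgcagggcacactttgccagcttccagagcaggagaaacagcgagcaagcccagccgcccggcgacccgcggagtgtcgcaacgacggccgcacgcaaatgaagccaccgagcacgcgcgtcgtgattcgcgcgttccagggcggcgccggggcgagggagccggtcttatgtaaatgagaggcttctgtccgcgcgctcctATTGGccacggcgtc

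The letters were counted in windows of 300 bases (250 before to 50 after the start), in the 62 histone windows and in those of 17429 other protein-coding genes. CCAAT, on either strand as for each motif here, stood in 85.5% of the histone windows and in 38.8% of the others. TATAAA stood in 56.5% against 13.2%, ATTTGCAT in 22.6% against 1.60%, GGGCGG in 38.7% against 45.9% and TGACGTCA in 6.45% against 2.20%. Each motif was counted on its own, so matches of different motifs can overlap, and a match describes letters, not a bound factor. All windows of H1, H2A, H2B and H3 genes held CCAAT, against 3 of 12 for H4. ATTTGCAT was present in 7 of 18 H2A and 7 of 16 H2B windows and in no window of the other classes. Histone windows held a median of 11 CpG dinucleotides and 45.3% GC, against 13 and 56.3% in other genes.

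Most histone gene starts lay in or near open chromatin in both cell types and in every state. By the authors' gene names, 59 of the 61 genes had a promoter peak in at least 1 list and 23 in all 8 lists, where 39.0% of all named genes had one in all 8. A peak was also sought within 1000 bp of each RefSeq start, whatever gene the authors named for it. By this count 45 of the 69 genes with a start had a peak in all 8 lists, against 44.2% of 17491 protein-coding genes, and 3 had none in any list, against 37.7%. Such a peak can be that of a neighbouring gene, so another count, added after seeing the data, asked that a peak cover the start itself. By it 34 of the 69 genes were covered in all 8 lists, against 34.7%, with a shared peak counted for each gene. It misses peaks that end a few bases short, such as those of Hist1h3i, 13 to 34 bp from the start in the D2 lists.

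In the count by gene name, D1 SS had 32 of 61 genes with a promoter peak (52.5%, where 45.9% of all named genes had one), D1 SC 48 (78.7%, against 53.1%), D1 CS 50 (82.0%, against 62.8%) and D1 CC 46 (75.4%, against 68.4%). D2 SS had 40 (65.6%, against 60.7%), D2 SC 39 (63.9%, against 58.8%), D2 CS 45 (73.8%, against 54.5%) and D2 CC 42 (68.9%, against 61.5%). By RefSeq start the D1 counts were 46 of 69 (66.7%, against 45.7% of protein-coding genes), 63 (91.3%, against 52.0%), 65 (94.2%, against 58.4%) and 66 (95.7%, against 60.7%) in SS, SC, CS and CC. The D2 counts were 55 (79.7%, against 55.9%), 55 (79.7%, against 54.4%), 60 (87.0%, against 53.2%) and 56 (81.2%, against 56.2%) in the same order. A peak covered 36, 51, 60 and 64 of the 69 starts in the D1 lists (52.2%, 73.9%, 87.0% and 92.8%, against 38.6%, 43.7%, 51.7% and 55.2%). In the D2 lists it covered 46, 45, 50 and 46 (66.7%, 65.2%, 72.5% and 66.7%, against 50.8%, 48.8%, 44.5% and 51.1%). The histone share stood above the background in all 8 lists under all 3 counts, and lowest in D1 SS. In the counts by RefSeq start and by covered start, a peak over a shared H2A and H2B promoter counts for both genes. For 9 head-to-head pairs a single peak spanned both starts in all 8 lists, so the genes of a pair are not separate observations. The effect of this on the gap to the background was not tested.

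**Figure D1:**
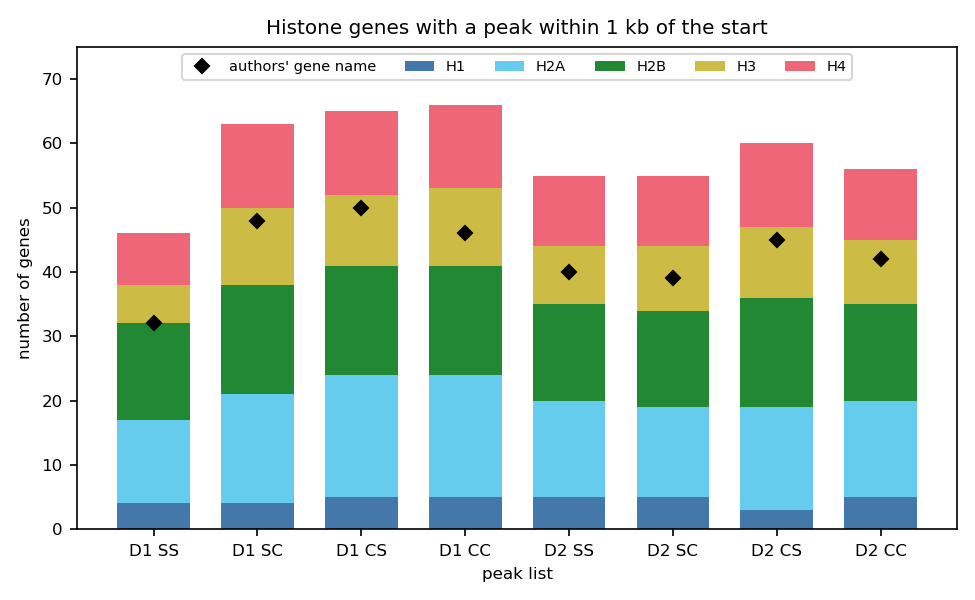
Number of histone genes with a peak within 1 kb of the RefSeq start in each of the 8 peak lists, stacked by histone class (bars, 69 genes), and the number with a promoter peak by the authors' gene name (black diamonds, 61 genes). Bars run from 46 in D1 SS to 66 in D1 CC, and the diamonds lie below the bar tops in every list.

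The counts by name and by RefSeq start differ in the gene start used, in how distance is measured, in the genes counted (61 and 69), and in that each peak carries the name of 1 gene while histone starts lie close together. RefSeq gives 13 head-to-head H2A and H2B pairs with starts 164 to 281 bp apart. Of these, 10 pairs had a peak in all 8 lists, and in 9 a single peak spanned both starts in every list. In the 88 combinations of pair and list with a peak, the peak carried the H2A name in 44 and the H2B name in 44. For 7 pairs the name changed between lists: the peak between Hist1h2ac and Hist1h2bc was named for the H2A gene in 3 lists and for the H2B gene in 5. That pair had 1 peak over both starts in all 8 lists, so there a change of name was not a change of peak. The strongest peak at Hist2h2bb and Hist2h3b was named for the predicted gene Gm42743 in 5 lists.

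All 61 genes are accounted for as follows. Besides the 23 genes in all 8 lists, 11 had a promoter peak by name in 7 lists (Hist1h2ai, Hist1h2ae, Hist1h2bk, Hist1h3a, Hist1h3i, Hist1h4b, Hist1h4j, Hist1h4k, Hist2h2ab, Hist2h2ac and Hist2h3b), 3 in 6, 2 in 5, 4 in 4, 8 in 3, 5 in 2 and 3 in 1. The 2 genes with none were Hist1h1b and Hist1h1d, both linker histones. Their peaks lay 1041 to 2952 bp from the gene start the authors used, but Hist1h1d had a peak within 1000 bp of its RefSeq start in all 8 lists, which covered the start in 4, and Hist1h1b in 6, 791 to 941 bp away. At the distance limit, the H1 gene Hist1h1c had its strongest peak centred 910 to 990 bp from the authors' start in 7 lists, just inside, while Hist2h4 had weak peaks at 1031 to 1063 bp in 3 lists, just outside, besides its main peak. The 9 genes never named in a list were Hist1h2bn, Hist1h2an, Hist1h2ao, Hist1h2ag and Hist1h2bf, each with a peak near its start in at least 4 lists, the testis-type Hist1h1t, Hist1h2aa and Hist1h2ba, and Hist2h2be, for which no start was used here.

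**Figure D2:**
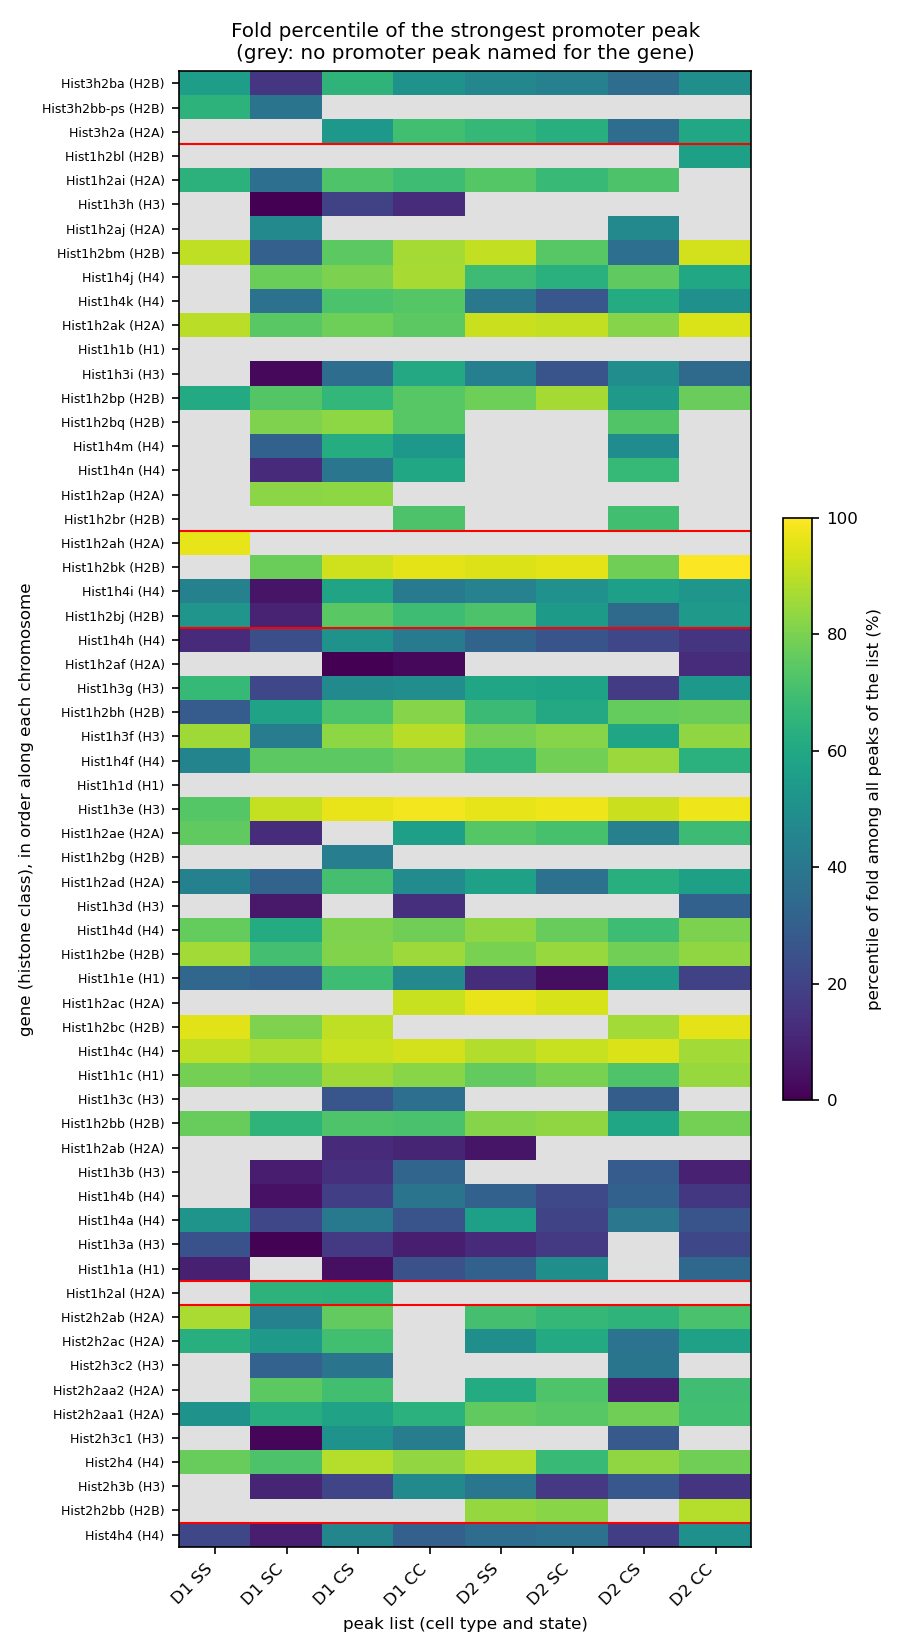
Fold percentile of the strongest promoter peak of each of the 61 histone genes (rows, in order along each chromosome, red lines between stretches) in each of the 8 peak lists (columns), on a colour scale from 0 to 100%, with grey where no promoter peak carried the gene's name. Hist1h3e and Hist1h4c are bright across the lists, and Hist1h2bq, Hist1h4m and Hist1h4n are filled in the 4 patch-rich lists and grey in the other 4.

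The strength of a peak is given as its fold percentile, the rank of the authors' fold enrichment over background among all peaks of the same list, since fold is not scaled between lists. In bulk nuclei, fewer open nuclei and less signal per nucleus cannot be told apart. By gene name the median percentile in D1 SS was 64.4 for histone genes and 66.1 for all genes with a promoter peak, in D1 SC 38.2 and 71.3, in D1 CS 67.5 and 76.6, and in D1 CC 62.0 and 79.0. Among D2 lists it was 68.5 and 75.7 in SS, 66.6 and 74.1 in SC, 56.3 and 70.4 in CS, and 59.7 and 74.8 in CC. The histone median was the lower in all 8 lists, with the smallest gap in D1 SS and the widest in D1 SC. Ranked among promoter peaks alone, the histone median was 52.4, 28.8, 48.5 and 42.3 in the D1 lists and 48.7, 48.0, 43.7 and 42.3 in the D2 lists, above the middle in D1 SS and close to it in D1 CS, D2 SS and D2 SC. A longer list holds more weak peaks, so percentiles depend on list length: when only the best 27917 peaks by q of every list were ranked, the histone median was 37.3 in D1 SC but 20.2 in D1 CC, and 34.6, 35.0 and 24.2 in the SS, SC and CC lists of D2. Taking the strongest peak at each RefSeq start, the order in D1 SS turned, with 75.5 for histone genes against 69.6 for protein-coding genes, and histone genes were lower in the other 7 lists, for example 56.7 against 75.4 in D1 SC. Each median covers only the genes with a peak in that list, here 46 histone genes in D1 SS and 63 in D1 SC. Widths differed little: the median histone promoter peak was 599.5 bp in D1 SS and 833.5 bp in D1 CC, where all genes with a promoter peak had 601 and 842 bp.

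**Figure D3:**
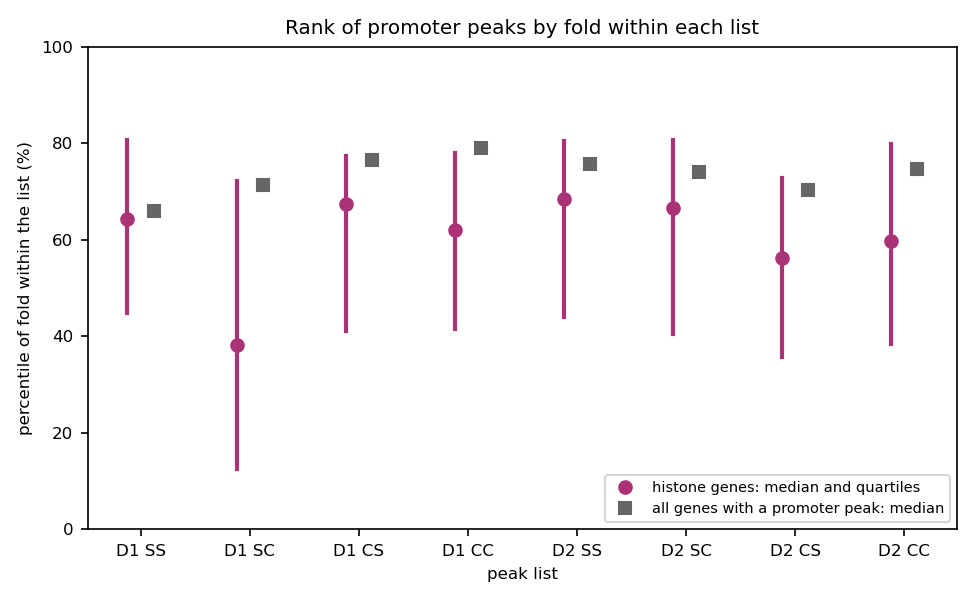
Median fold percentile with lower and upper quartiles of the promoter peaks named for histone genes (circles and lines) and the median over all genes with a promoter peak (squares) in each peak list. The circle lies below the square in all 8 lists, at 64.4 against 66.1 in D1 SS and at 38.2 against 71.3 in D1 SC, and the lines show spread over genes, not replicates.

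The classes differed in strength by gene name, though the class of a shared peak follows its name. The median of the 8 list medians was 74.2 for H2B, 68.7 for H2A, 54.5 for H4, 48.5 for H1 and 38.8 for H3. H2B medians ranged from 64.6 to 82.1 over lists, and those of H3 from 7.58 in D1 SC to 70.3 in D1 SS. These 2 H3 medians rest on 11 genes in D1 SC and 4 in D1 SS, so they compare different sets of genes. The H1 medians rest on only 3 genes in D1 SS and 2 in D1 SC. By RefSeq start, where a gene takes the strongest peak near it, the H3 value rose above that of H4: the median over genes of their mean percentile was 75.5 for H2B, 70.9 for H2A, 61.2 for H3, 60.6 for H1 and 51.7 for H4. A peak was present in all 8 lists at 15 of 18 H2B, 13 of 20 H2A, 8 of 13 H4, 6 of 12 H3 and 3 of 6 H1 genes.

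Hist1h3e, an H3 gene of the third Hist1 stretch, had the highest mean percentile among the genes with a promoter peak in all 8 lists. Its percentile was 73.7, 91.3, 96.7 and 98.4 in D1 SS, SC, CS and CC, and 96.2, 97.5, 91.8 and 97.6 in the D2 lists in the same order. The D1 SS value was the lowest of the 8. Hist1h4c, an H4 gene, stood at 90.3, 87.9, 91.6 and 93.2 in the D1 lists and at 88.4, 91.5, 94.8 and 86.1 in the D2 lists, a narrow range. The H2A gene Hist1h2ak, whose peak also covers the start of Hist1h2bn, stood at 89.5, 74.2, 77.9 and 74.7 in D1 and at 91.8, 90.7, 81.7 and 94.4 in D2. Its 4 patch-poor values were all above its 4 patch-rich ones.

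The H2B gene Hist1h2be has 2 starts in RefSeq. Its promoter peak, at the start beside the linker gene Hist1h1e, stood between 70.0 (D1 SC) and 86.3 (D1 SS). Its other peaks, annotated by the authors as gene body, lay 34912 to 35230 bp from their start and stood at 21.4 to 66.7. RefSeq places the gene at chr13:23583670-23621124 on the minus strand, with its other start at 23585970. These weaker peaks therefore lie in the region of that other start. Hist1h1c, which encodes linker histone H1.2, stood between 72.4 (D2 CS) and 85.9 (D1 CS), and Hist2h4 between 67.4 (D2 SC) and 89.0 (D1 CS). The next genes by mean percentile were Hist1h4d at 75.8, Hist1h3f at 75.4, Hist1h2bb at 73.7 and Hist1h2bm at 72.1. By name Hist1h2bm ranged from 30.6 in D1 SC to 93.1 in D2 CC. In D1 SC the strongest peak at its start carried the name of its neighbour Hist1h2aj, and by RefSeq start the range was 47.2 to 93.1.

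The strongest of the shared H2A and H2B promoters were those of Hist1h2ah with Hist1h2bk and Hist1h2ac with Hist1h2bc. The peak at Hist1h2ah and Hist1h2bk stood at 96.2, 77.4, 92.9 and 96.0 in D1 SS, SC, CS and CC and at 94.9, 96.0, 78.2 and 99.4 in D2. The peak at Hist1h2ac and Hist1h2bc stood at 95.6, 80.7, 90.6 and 91.5 in D1 and at 96.7, 94.0, 86.0 and 95.8 in D2. Both pairs were lowest in D1 SC and next lowest in D2 CS, the 2 lists with the fewest peaks (28321 and 27917), while D1 SS, with 28579, stood at 96.2 and 95.6. A weaker pair, Hist1h2ag with Hist1h2bj, fell between 9.97 in D1 SC and 74.3 in D1 CS.

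The 3 genes of the family known as testis-type had no peak within 1000 bp of the start in any list. Hist1h1t encodes the linker histone of spermatocytes, and Hist1h2aa and Hist1h2ba encode the testis forms of H2A and H2B. Hist1h1t lies among open genes: its nearest peak, named for Hist1h4c, was 1.81 to 2.29 kb away. For Hist1h2aa and Hist1h2ba the nearest peak lay 15.2 to 129 kb away. Their windows all held CCAAT, and 2 of 3 held TATAAA and 2 of 3 ATTTGCAT, letters also found at many open members.

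Within 1000 bp of the RefSeq start, 6 of 9 Hist2 genes, all 3 Hist3 genes and Hist4h4 had a peak in all 8 lists, where 44.2% of protein-coding genes did. By gene name fewer did, as given below. Hist4h4 had a promoter peak in all 8 lists at percentiles of 21.2, 8.34, 45.9 and 30.5 in D1 and 35.6, 37.2, 18.4 and 50.2 in D2. On chromosome 11, Hist3h2ba had one in all 8 lists (15.6 in D1 SC to 65.2 in D1 CS). The neighbouring pair of Hist3h2a and the pseudogene Hist3h2bb-ps shared 1 peak in all 8 lists, named for the pseudogene in D1 SS and D1 SC and for Hist3h2a in the other 6. On chromosome 3, Hist2h4 and Hist2h2aa1 had a promoter peak by name in all 8 lists. By RefSeq start so did Hist2h2ab, Hist2h2ac, Hist2h3b and Hist2h2bb, while the Hist2h2aa2 start lacked one in D1 SS. The Hist2h3b start was covered in 3 lists only, and in D1 SS its nearest peak, named Gm42743, lay 604 bp away. The starts of Hist2h3c1 and Hist2h3c2 were covered in the 4 patch-rich lists and in no other.

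At the low end, the H3 gene Hist1h3a had a promoter peak by name in 7 lists, with a median width of 303 bp, at percentiles of 0.715 to 25.4. The H4 gene Hist1h4b was in 7 lists at 4.77 to 38.4. Hist1h4h was in all 8 at 11.8 to 51.2. The linker gene Hist1h1e ranged by name from 3.57 in D2 SC to 68.9 in D1 CS. The strongest peak within 1000 bp of its RefSeq start, named for Hist1h2be, stood at 70.0 to 86.3, so its low place holds by name only. For Hist1h3a the range by RefSeq start was 20.3 to 56.3. Hist1h2af was seen in D1 CS, D1 CC and D2 CC at 0.112 to 12.6, close to the bottom of those lists.

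No histone gene had a peak within 1000 bp of its start in exactly the 4 D1 lists or exactly the 4 D2 lists (0% of protein-coding genes had the first pattern and 0.00572% the second), none had its start covered in such a pattern (0.00572% and 0.0229%), and none did by gene name (0.0186% and 0.0464% of named genes). By contrast, 6 genes had a peak in exactly the 4 patch-rich lists, where 0.680% of protein-coding genes did: Hist1h2ao, Hist1h2ap, Hist1h2bq, Hist1h2br, Hist1h4m and Hist1h4n. With the start covered by a peak there were 8, these 6 with Hist2h3c1 and Hist2h3c2 (0.543%). The reverse pattern, exactly the 4 patch-poor lists, was shown by 0 of the 69 genes (0.00572% of protein-coding genes) and by 0 of the 61 by name (0.0511% of named genes). By gene name, 4 of 61 genes were in exactly the patch-rich lists (Hist1h2bq, Hist1h4m, Hist1h4n and Hist2h3c1), where 0.771% of named genes were.

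The 6 genes fill one stretch, chr13:21806412-21837530, which held 4 peaks in each patch-rich list and 0 in each patch-poor list. Their strength varied. The shared peak of Hist1h2ao and Hist1h2bq stood at percentiles of 80.8, 83.1 and 73.9 in D1 SC, CS and CC and of 72.8 in D2 CS. The peak of Hist1h2ap and Hist1h2br stood at 82.6, 83.0, 72.0 and 69.6 in the same lists, that of Hist1h4m at 31.0, 62.1, 53.3 and 48.5, and that of Hist1h4n at 11.9, 39.3, 59.8 and 67.1. The peaks of the 2 H4 genes ranked below those of the H2A and H2B pairs in each of these lists.

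These genes have close copies of their promoters within the same stretch, shown above for Hist1h2bq. The windows of Hist1h2bq and Hist1h2br were identical over all 300 bases, those of Hist1h4m and Hist1h4n over 99.3% with a run of 285 bases, and those of Hist1h2ao and Hist1h2ap shared a run of 200. On chromosome 3, Hist2h3c1 and Hist2h3c2 shared a run of 231 bases, and a peak covered each start in all 4 patch-rich lists and in no patch-poor list. The windows of Hist2h2aa1 and Hist2h2aa2 share 219 bases, but Hist2h2aa1 had a peak in all 8 lists and Hist2h2aa2 in all but D1 SS. The Hist2h2aa1 peak was 681, 803 and 872 bp wide in the SC, CS and CC lists of D1 and 652 bp in D2 CS, against 407 bp in D1 SS and 448, 702 and 533 bp in the SS, SC and CC lists of D2, so the D2 SC peak lay within the patch-rich range.

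All 10 genes with such a copy had a peak over the start in each patch-rich list, against 0 in D1 SS and 1, 2 and 1 in the SS, SC and CC lists of D2. With a peak within 1000 bp the patch-poor counts were 1 in D1 SS and 2, 4 and 2 in D2. The other 59 genes had a peak within 1000 bp at 53, 55 and 56 starts in the SC, CS and CC lists of D1 and 50 in D2 CS, and at 45 in D1 SS and 53, 51 and 54 in the SS, SC and CC lists of D2. They include genes without a promoter sequence in RefSeq, such as Hist1h2al and Hist1h3a, which could not be checked for a copy. The ranges of the 2 sets of lists overlap for these 59 genes, with D1 SS the lowest, and do not for the 10. The 10 genes were set apart after seeing the data and include the 6 with a peak in exactly the patch-rich lists. This contrast is therefore a description and no independent support. Reads within such a shared run cannot be placed by sequence alone, so the values of these 10 genes are uncertain. How reads that match several places were handled is not given in the sources used here, and its part in the pattern was not tested.

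**Figure D4:**
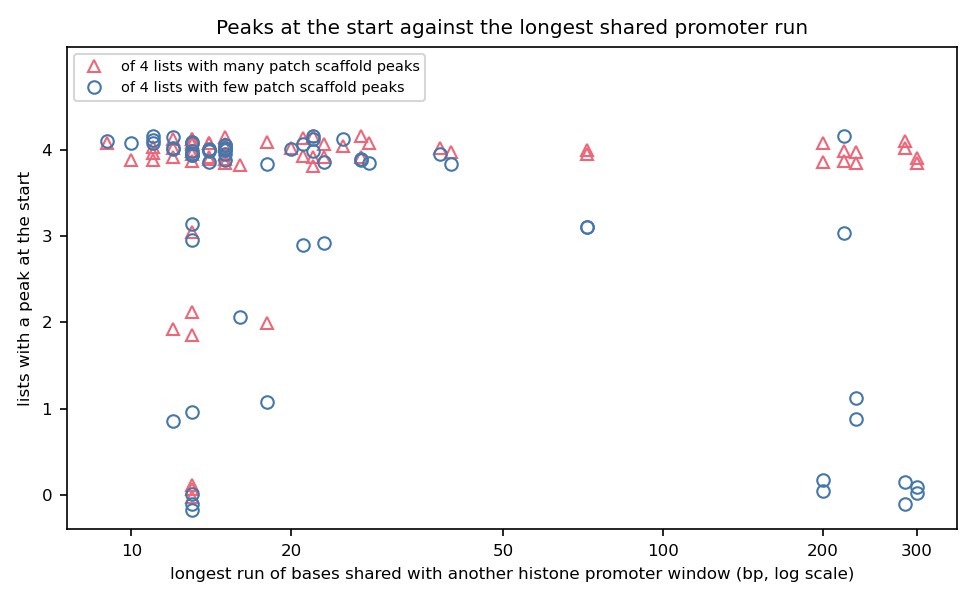
For histone genes with a RefSeq promoter sequence, the longest run of bases shared with another histone promoter window (x axis, log scale) against the number of lists with a peak within 1000 bp of the start (y axis, jittered to part the points), for the 4 patch-rich lists (triangles) and the 4 patch-poor lists (circles). Among the 10 genes with runs of 200 bases or more, the triangles are all at 4 and the circles lie between 0 and 4.

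Within a set of lists, few genes had a peak within 1000 bp of the start in 1 list alone, and more did in D1 where the peak had to cover the start. In D1 CC against D1 SC, 3 of 69 genes had a peak in CC alone (Hist1h1a, Hist1h2ab and Hist1h2af, against 8.78% of protein-coding genes) and 0 in SC alone (0.0572%). A peak covered the start in CC alone at 13 genes (18.8%, against 11.6%) and in SC alone at 0 (0.114%). In D1 CC against D1 CS, Hist1h3d alone had a peak in CC and not in CS (background 3.05%) and 0 genes the reverse (0.823%), while 4 starts were covered in CC alone (4.37%) and 0 in CS alone (0.829%).

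In D2 SC against D2 SS, Hist2h3c1 and Hist2h3c2 had a peak within 1000 bp in SC alone (background 0.835%), but neither start was covered. The peaks counted were those of Hist2h2aa1 and Hist2h2aa2, which ended 932 and 946 bp away. Hist1h2ab and Hist1h3b had one in SS alone (2.30%), which was 1 peak over the start of Hist1h2ab, 974 bp from that of Hist1h3b. By covered start, Hist1h1d, Hist1h3a and Hist2h2aa1 were in SC alone (1.01%) and Hist1h1e, Hist1h2ab, Hist1h4j and Hist2h3b in SS alone (3.03%). Edges moved by few bases decide some of these calls: in D2 SS the nearest peak lay 30 bp from the start of Hist1h1d and 4 bp from that of Hist2h2aa1. In D2 CC against D2 SS, Hist1h2af and Hist1h3d had a peak within 1000 bp in CC alone (1.51%) and Hist1h2ab in SS alone (1.19%), and 2 starts were covered in each alone (1.85% and 1.54%).

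By gene name the same comparisons gave 7 genes in D1 CC alone and 9 in D1 SC alone (backgrounds 17.8% and 2.39%), and 4 in D1 CC alone and 8 in D1 CS alone (8.98% and 3.39%). Among the 9 were Hist2h2ab, Hist2h2ac, Hist2h2aa2 and Hist2h3c2, whose starts were covered in D1 CC too, where wide peaks carried the names Gm44492 and AC125099.2. Names gave 0 genes in D2 SC alone and 1 in D2 SS alone (3.28% and 5.24%), and 5 in D2 CC alone and 3 in D2 SS alone (4.52% and 3.69%). Of the genes with a promoter peak by name in both D1 CC and D1 SC, 38 of 39 had the higher percentile in CC, by a median of 17.4 points, where all genes in both lists were higher by a median of 10.5. With lists of equal length the order of the histone medians turned, to 20.2 in CC and 37.3 in SC, so no direction is drawn from these percentiles. All 39 peaks were wider in CC, by a median of 292 bp, against 275.5 bp over all genes.

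The cell types at baseline are both patch-poor. Here 9 of 69 genes had a peak within 1000 bp of the start in D2 SS and not in D1 SS, against 10.3% of protein-coding genes, and 0 the reverse (0.0858%). The 9 were Hist1h1b, Hist1h2ab, Hist1h3b, Hist1h3h, Hist1h3i, Hist1h4b, Hist1h4j, Hist1h4k and Hist2h2aa2. For Hist1h3h and Hist1h3b the peaks counted were those of the H2A genes Hist1h2ai and Hist1h2ab, 941 and 974 bp away, and in D1 SS the Hist1h2ai peak ended 1012 bp from the Hist1h3h start, just outside the limit. A peak covered the start in D2 SS and not in D1 SS at 10 genes (14.5%, against 12.3%) and the reverse at 0 (0.109%). The 10 were the H4 genes Hist1h4b, Hist1h4h, Hist1h4i, Hist1h4j, Hist1h4k and Hist4h4, with Hist1h1e, Hist1h2ab, Hist2h2aa2 and Hist2h3b. By name the counts were 11 and 3 of 61 (16.8% and 2.00%). After withdrawal, where both lists are patch-rich, 5 genes had a peak within 1000 bp in D1 CS and not in D2 CS (Hist1h1a, Hist1h1b, Hist1h2ab, Hist1h2af and Hist1h2al, background 5.79%) and 0 the reverse (0.589%), and 10 starts were covered in D1 CS alone (14.5%, against 8.15%) and 0 in D2 CS alone (0.903%). By name 8 were in D1 CS alone and 3 in D2 CS alone (11.6% and 3.29%).

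Of the comparisons that cross the sets, those against D1 SS gave the largest counts by peak within 1000 bp. Against D1 SS, 18 of 69 genes had a peak within 1000 bp of the start in D1 SC alone (7.15% of protein-coding genes), 19 in D1 CS alone (12.9%) and 20 in D1 CC alone (15.0%), while 1, 0 and 0 had one in D1 SS alone (0.858%, 0.109% and 0.0114%). These share the D1 SS list. Without the 10 genes with a close copy, 9, 10 and 11 of 59 remained (15.3%, 16.9% and 18.6%). By covered start the counts were 17, 24 and 28 (7.47%, 13.5% and 16.7%), of which 7, 14 and 18 were not among the 10 copied genes. In D1 SS alone they were 2, 0 and 0 (2.32%, 0.354% and 0.0229%).

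In D2 CS against D2 SS, 8 genes had a peak within 1000 bp in CS alone (1.87%) and 3 in SS alone (4.52%), and without the copied genes 0 of 59 were in CS alone. By covered start 11 were in CS alone (1.52%), 2 of them without a close copy, and 7 in SS alone (7.84%). Between cell types, 9 genes had a peak within 1000 bp in D1 SC and not D2 SC (1.70%) and 10 in D1 CC and not D2 CC (4.96%), which became 3 and 2 of 59 without the copied genes. In the opposite direction there were 1 (4.18%) and 0 (0.497%). By covered start these were 12 (1.68%) and 18 (4.83%), of which 4 and 9 were not among the copied genes, and 6 (6.69%) and 0 (0.680%) in the opposite direction. Each of these comparisons also sets groups of 1 or 2 libraries against groups of 4 or 8. Cell type or state, patch content and library number cannot be told apart here.

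By name these comparisons gave 18 genes in D1 SC alone and 2 in D1 SS alone (10.7% and 3.54%), 21 in D1 CS alone and 3 in D1 SS alone (19.2% and 2.32%), and 19 in D1 CC alone and 5 in D1 SS alone (24.6% and 2.13%). They gave 10 in D2 CS alone and 5 in D2 SS alone (4.63% and 10.9%), 13 in D1 SC and 4 in D2 SC (4.33% and 10.0%), and 10 in D1 CC and 6 in D2 CC (10.4% and 3.51%).

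Within 1000 bp of the RefSeq start, 6 genes had a peak in every list but D1 SS, where 4.36% of protein-coding genes did: Hist1h3h, Hist1h3i, Hist1h4b, Hist1h4j, Hist1h4k and Hist2h2aa2. For Hist1h3h the D2 peaks were those of its H2A and H2B neighbours, 898 to 966 bp away, and its own peak was in D1 SC, D1 CS and D1 CC only. The start was covered in every list but D1 SS at 2 genes, Hist1h4i and Hist2h2aa2 (3.97%). By name 6 genes did as well (background 5.00%), among them Hist1h2bk, whose shared peak carried the name Hist1h2ah in D1 SS. The first Hist1 stretch held 4 peaks in D1 SS and 9 to 14 in the other lists, and the third stretch 22 in D1 SS and 23 to 31 in the others. Hist1h4j stood at percentiles of 59.9 to 86.9 in the 7 lists that had it. The pseudogene Hist1h2al had a peak in D1 SC, D1 CS and D1 CC and in no other list.

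Most genes that act with the replication-dependent histones had a peak within 1000 bp of the start in all 8 lists, where 44.2% of protein-coding genes did. All 10 replication-independent variant genes with a start had a peak there in all 8 lists, led by H2afv (mean percentile 97.6) and H3f3b (84.4), which encode H2A.Z.2 and H3.3. Of the factors that transcribe histone genes and process their mRNA, 11 of 12 had a peak in all 8, led by Npat, the coactivator of histone genes, at 98.6 and Casp8ap2 at 97.4. Slbp, which binds the stem-loop, stood at 90.5, and Srrt was the one factor of this group missing lists, with 6. Of the histone chaperones 9 of 11 had a peak in all 8, led by Asf1b at 97.9 and Rbbp4 at 95.1, and Chaf1b and Nasp lacked one in D1 SS. Replication licensing and S phase genes had a peak in all 8 in 10 of 12 cases, led by Mcm3 at 97.1, with Mcm2 and Cdc6 the exceptions. Among proliferation markers 4 of 5 had one in all 8 lists, Ccnb1 at 92.7, and Mki67 in 6.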

How the data were processed

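The data are 8 ATAC-seq peak lists, 1 per group, from 26 libraries of MSN nuclei. The submitters' processing notes name cutadapt, HISAT, SAMtools and MACS2 and the build mm10, without versions or roles. Whether peaks were called on pooled libraries is not given in the sources used here. The deposited fold of each peak is the authors' ratio over background, used within a list only. The deposited q-value of each peak, by the authors, reached 0.0453 at most. The distance to the gene start and the gene name are also the authors'. There are 0 per-library columns, so no replicate error, p-value or paired comparison could be had, and read depth is not in the lists.

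Only the standard chromosomes were kept. A promoter peak lay within 1000 bp of the gene start, and the strongest per gene by fold was used. Fold percentiles are mid-ranks among all peaks of a list. In a second count, any peak within 1000 bp of a RefSeq start (GRCm38.p6) was taken, and in another a peak that covers that start. Patch-rich and patch-poor lists were told apart from the data, by their patch scaffold peaks, a split that follows library number (1 or 2 against 4 or 8). Promoter windows were aligned within a class, and a run of at least 200 shared bases defined a close copy. Genes without a promoter sequence were not checked for a copy and were kept among the other genes.

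Genes described in full were the 10 with the highest mean percentile among those in all 8 lists, those in exactly the lists of 1 cell type or 1 patch set or in all lists but 1, the testis-type genes, and those on chromosomes 3, 6 and 11. Related lists were variant histones, histone mRNA factors, chaperones, S phase genes, and markers of D1, D2 and pan-MSNs, astrocytes, oligodendrocytes, microglia, vascular and proliferating cells. Members and lists were chosen with earlier results of these data known. Alternatives were a distance of 250 or 3000 bp, a q of at most 1e-05, every promoter peak, ranks among promoter peaks, each list cut to its best 27917 peaks by q, the RefSeq start, and, chosen after seeing the data, leaving out close copies and a peak covering the start. The overlap step was tested on simulated data and recovered 5000 of 5000 known promoters. Python 3.11.15, numpy 2.4.6, pandas 2.3.3, biopython 1.88 and matplotlib 3.10.9 were used. Hist2h2be was not analysed by position.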

Additional observations from a re-analysis of the deposited data

How the results depend on the processing

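The count of histone genes with a promoter peak and the median width in each list stayed within a factor of 1.5 of their values under every alternative tried. The median fold percentile was read against the 95% interval of the median by order statistics over genes, which is no replicate error. It stayed within that interval in D1 SS, D1 SC and D2 CS under the alternatives run for it. Ranked among promoter peaks in place of all peaks, it left that interval, at 48.5 in D1 CS, 42.3 in D1 CC, and 48.7, 48.0 and 42.3 in the SS, SC and CC lists of D2. With lists of equal length it was 47.4, 20.2, 34.6, 35.0 and 24.2 in the same lists, since fewer weak peaks remain to be ranked below. The genes with a promoter peak in 1 of the 2 lists compared, summed over directions, depend on how a peak is assigned. By RefSeq start in place of the gene name there were 3 in place of 16 for D1 CC against SC, 1 in place of 12 for D1 CC against CS, 4 in place of 1 for D2 SC against SS, 3 in place of 8 for D2 CC against SS, 9 in place of 14 for D1 against D2 in SS, 10 in place of 17 in SC, 5 in place of 11 in CS and 10 in place of 16 in CC. With a peak covering the RefSeq start, chosen after seeing the data, D1 CC against CS gave 4, D2 SC against SS 7 and D2 CC against SS 4. With lists of equal length, D2 SC against SS gave 5. Without close copies, by name, D1 SC against SS gave 13 in place of 20, D2 CS against SS 9 in place of 15, D1 against D2 in SC 11 and in CC 10. All other results tried under these alternatives stayed within a factor of 1.5. Leaving out a library was not run, since no list gives values per library. No paired analysis was possible because the lists hold 1 column of values per group and none per replicate. A weak site missing from a list was not detectable at the depth of that list, which is unknown.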
